A study of Caenorhabditis elegans with 10 samples.

Results

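Mitochondrial ribosomal protein genes of Caenorhabditis elegans were followed across 10 RNA-seq libraries of whole embryos. The genes were picked by name: protein-coding genes whose symbol is mrpl or mrps with a number, and with at least 1 CPM (a count scaled to library size) in at least 2 libraries. The rule found 45 genes among 20389 protein-coding genes of the deposited table, 26 named for the large subunit (mrpl) and 19 for the small subunit (mrps). All 45 passed the filter on low values and were among the 14802 genes tested.

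The libraries formed 5 groups of 2. In the group lin-45 500 mM, embryos of the mutant lin-45(n2018) were on 500 mM NaCl and their parents had grown on 50 mM, and in lin-45 50 mM both parents and embryos were on 50 mM. The group N2 300-500 mM, called preconditioned here, held N2 embryos on 500 mM whose parents had grown on 300 mM. In N2 500 mM and N2 50 mM, the parents of the N2 embryos had grown on 50 mM and the embryos were on 500 mM or 50 mM. N2 is the wild-type strain, and lin-45 encodes the worm RAF kinase, which acts between RAS and the MAP kinase cascade. All embryos were taken 3 hours after egg preparation. The labels give the allele and the salt levels, and do not say whether replicates came from separate cultures, so a p-value here reflects how far these libraries vary, and that variation may be technical. In RNA of whole embryos, fewer cells of a type and less RNA per cell cannot be told apart.

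Mitochondria carry their own ribosomes, which translate the few proteins still encoded by mitochondrial DNA, nearly all of them subunits of the respiratory chain. Apart from their rRNAs, these ribosomes are built from proteins that are encoded in the nucleus, made in the cytosol and imported. Some of these proteins have a bacterial counterpart and others are found only in mitochondria. In worms, knock-down of single members such as mrps-5 is known to unbalance nuclear and mitochondrial respiratory subunits, to switch on the mitochondrial unfolded protein response and to lengthen life.

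The libraries held 22138098 to 34585489 counts, and expected counts of the 45 genes ranged from 149.29 to 3875.25 in single libraries. Replicates varied by 13.1% (coefficient of variation, pooled over tested genes). Replicates of a group differed by more than sampling noise, with chi-square per degree of freedom of 8.71 to 42.6, so no library was counted as a copy of another. gpdh-1 encodes an enzyme of the pathway that makes the glycerol worms build up on salt. It had 109 and 107 CPM in lin-45 at 500 mM and 13.2 and 9.62 in lin-45 at 50 mM. In N2 it had 73.4 and 91.3 CPM in preconditioned embryos, 187 and 180.0 at 500 mM and 4.05 and 3.34 at 50 mM. All 6 libraries on 500 mM were above all 4 on 50 mM. lin-45 itself had 118 and 119 CPM in lin-45 at 50 mM, against 92.97 and 94.97 CPM in N2 at 50 mM, which does not check the mutant label because the allele's effect on RNA is not given in the labels. Defining markers of adult soma summed to 0.416 to 3.17 CPM and those of sperm to 0 to 0.923 CPM in the 10 libraries, whereas differentiated embryonic muscle summed to 5086 to 10137 CPM.

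Compared per length, the members spanned a narrow band. Their mean FPKM (the authors' fragments scaled to gene length and library size) over the 10 libraries had a median of 39.3 and a 5.91-fold range. mrpl-14, in bacteria a core protein of the large subunit, was at the top with 85.6 FPKM, then mrps-33 with 81.6 and mrpl-11, in bacteria part of the base of the ribosomal stalk, with 80.2. At the bottom were mrps-2 with 24 FPKM, mrps-31 with 19.4 and mrpl-46 with 14.5. The ranges over libraries of the 3 highest overlapped, with 78.9 to 94.7 FPKM for mrpl-14, 71.8 to 95.0 for mrps-33 and 52.97 to 113.2 for mrpl-11. The median over all tested genes was 15.9 FPKM, and over 78 cytosolic ribosomal protein genes it was 2035 FPKM.

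Summed over the 45 members, the level was 1242 ± 0.580 CPM in lin-45 at 500 mM, 1977 ± 98.3 in lin-45 at 50 mM, 1407 ± 10.3 in preconditioned embryos, 1313 ± 59.9 in N2 at 500 mM and 1584 ± 44.7 in N2 at 50 mM (SD, n = 2 each). By group mean, 42 of the 45 members were highest in lin-45 at 50 mM, and 30 were lowest in lin-45 at 500 mM. The shares of all tested genes in these orders are not given here. For 50.8% of all tested genes, both lin-45 libraries at 50 mM lay above both of N2 at 50 mM. Each of the 3 N2 groups was the lowest for 3 to 6 members. The widest span was that of mrpl-12, whose highest group mean was 3.11 times the lowest, and the narrowest was that of mrpl-40, with 1.16 times.

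**Figure D1:**
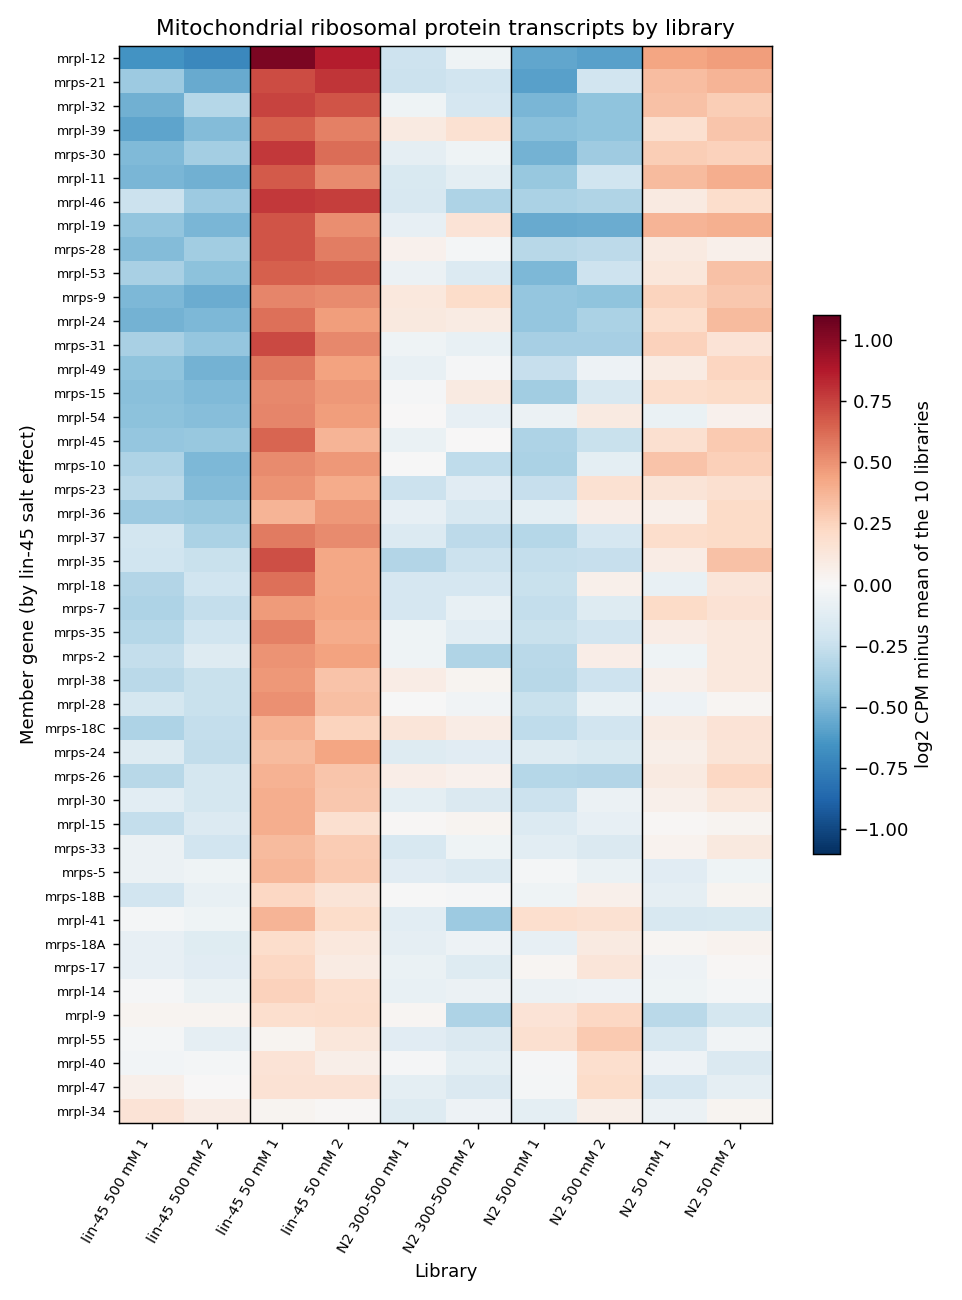
Heat map of the 45 members (rows) in the 10 libraries (columns), as log2 of CPM over the gene's mean. Most rows are highest in the lin-45 50 mM columns and low in the columns of embryos moved from 50 to 500 mM, while a few rows such as mrpl-9 and mrpl-34 keep other orders.

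In lin-45 embryos, salt went with lower RNA of nearly the whole set. Of the 45 members, 40 were lower on 500 mM than on 50 mM (34.9% of all tested genes were) and 0 were higher (33.4% of all tested genes), by edgeR's quasi-likelihood test with adjusted p under 0.05. At an unadjusted p under 0.05 the counts were also 40 lower and 0 higher. DESeq2 called 36 lower and 0 higher (4529 and 4976 of all tested genes). The median log2 fold change was -0.79, against -0.021 over all tested genes. For 44 of the 45 members, both libraries on 500 mM lay below both on 50 mM, which was so for 45% of all tested genes, and for 1 they lay above (43.2% of all tested genes).

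mrpl-12, the counterpart of the bacterial stalk protein that draws translation factors to the ribosome, lies on the plus strand of chromosome III from 10707661 to 10708419 (W09D10.3; all positions are gene spans in ce10). It had 22.6 and 21.8 CPM in lin-45 at 500 mM, 73.1 and 64.9 in lin-45 at 50 mM, 30.5 and 34.5 in preconditioned embryos, 24.01 and 23.6 in N2 at 500 mM and 48.03 and 48.9 in N2 at 50 mM. The 4 libraries of embryos moved from 50 to 500 mM were lowest, the preconditioned ones lay between, and no library on 500 mM overlapped one on 50 mM. Its log2 fold change on salt was -1.64 ± 0.10 in lin-45 (SE; adjusted p = 1.98e-06), the lowest of the 45, and -1.03 ± 0.09 in N2 (adjusted p = 2.88e-05), again the lowest. The gene model overlaps W09D10.5 on the opposite strand, and the strandedness of counting is not given in the sources used here. W09D10.5 had log2 fold changes of 0.44 in lin-45 and 0.36 in N2, the opposite direction.

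The next lowest in lin-45 were mrps-21 at -1.23 ± 0.15, mrpl-32 at -1.14 ± 0.10 and mrpl-39 at -1.13 ± 0.09, with adjusted p of 1.16e-04, 2.11e-05 and 1.25e-05. mrpl-32 is known in yeast and mammals as a substrate of the m-AAA protease, whose cut lets the subunit assemble. mrpl-39 is a protein of the large subunit without a bacterial counterpart. mrps-30, named for the small subunit although its human relative sits in the large one, lies on the minus strand of chromosome I from 10636681 to 10638966 (B0511.8). It had 42.7 and 46.1 CPM in lin-45 at 500 mM, 102 and 91.4 in lin-45 at 50 mM, 55.6 and 57.7 in preconditioned embryos, 41.7 and 45.6 in N2 at 500 mM and 71.8 and 71.1 in N2 at 50 mM. Its fold change in lin-45 was -1.12 ± 0.09 (log2, SE; adjusted p = 8.28e-06), and that of mrpl-11 was -1.12 ± 0.09 (adjusted p = 1.14e-05).

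Only 5 members did not pass the test in lin-45, all of them named for the large subunit: mrpl-9 at -0.16, mrpl-34 at 0.10, mrpl-40 at -0.13, mrpl-47 at -0.13 and mrpl-55 at -0.14. mrpl-34, the counterpart of one of the smallest proteins of the bacterial large subunit, lies on the plus strand of chromosome I from 10193229 to 10194259 (C25A1.13). It had 32.4 and 30.9 CPM in lin-45 at 500 mM, 29.9 and 29.4 in lin-45 at 50 mM, 26.4 and 28.03 in preconditioned embryos, 27.1 and 30.5 in N2 at 500 mM and 27.9 and 29.7 in N2 at 50 mM. Its libraries lay within a narrow range in all 5 groups, and it was the one member with a positive value in lin-45. Its gene model overlaps aha-1 on the opposite strand, whose log2 fold changes were 0.44 in lin-45 and 0.32 in N2.

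In N2 embryos, the same salt step went with a mixed picture. On 500 mM, 25 members were lower than on 50 mM (32.1% of all tested genes were) and 3 were higher (31.4% of all tested genes), with 17 not past the test. The median was -0.33, against -0.0094 over all tested genes, and the middle 50% of the members spanned -0.53 to -0.023 on the log2 scale. Both libraries on 500 mM lay below both on 50 mM for 30 members (43.6% of all tested genes) and above both for 6 (42.8% of all tested genes). Of the 26 large-subunit names, 13 fell and 3 rose, and of the 19 small-subunit names, 12 fell and 0 rose. Without N2 at 50 mM replicate 1, or without N2 at 500 mM replicate 2, the number of higher members was 0 in place of 3.

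Behind mrpl-12, the lowest in N2 were mrpl-19 at -0.93 ± 0.10, mrpl-32 at -0.77 ± 0.10, mrps-21 at -0.75 ± 0.15, mrps-30 at -0.71 ± 0.09 and mrps-9 at -0.71 ± 0.07 (log2, SE). The bacterial counterpart of mrpl-19 sits where the subunits meet, and that of mrps-21 in the small subunit. The adjusted p was 7.39e-05 for mrpl-19 and 5.59e-05 for mrps-9. mrpl-19 had 28.3 and 28.4 CPM in N2 at 500 mM, against 53.7 and 54.5 in N2 at 50 mM, and the groups did not overlap. mrps-21 is the least counted of these, with 4.95 and 6.49 CPM in N2 at 500 mM, against 9.52 and 9.72 in N2 at 50 mM. It overlaps F29B9.11 on the same strand, which fell too, at -0.68, so reads of the pair may have been split.

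The 3 that rose in N2 were mrpl-9, mrpl-41 and mrpl-55, and none of them rose in lin-45. mrpl-9, the counterpart of an elongated bacterial large-subunit protein, lies on the minus strand of chromosome I from 10732530 to 10733674 (B0205.11). It had 49.02 and 49.05 CPM in lin-45 at 500 mM, 54.6 and 55.1 in lin-45 at 50 mM, 48.95 and 38.1 in preconditioned embryos, 53.4 and 56.5 in N2 at 500 mM and 39.1 and 42.1 in N2 at 50 mM. The N2 groups without preconditioning did not overlap, while the 2 preconditioned libraries differed from each other by more than those of any other group. Its fold change in N2 was 0.44 ± 0.11 (log2, SE; adjusted p = 0.00934), and mrpl-55 was at 0.33 ± 0.09 (adjusted p = 0.0133).

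mrpl-41, a large-subunit protein of mitochondria alone, lies on the plus strand of chromosome II from 288936 to 290399 (B0432.3). It had 31.8 and 31.1 CPM in lin-45 at 500 mM, 41.7 and 36.96 in lin-45 at 50 mM, 29.7 and 24.5 in preconditioned embryos, 36.6 and 36.1 in N2 at 500 mM and 28.5 and 28.6 in N2 at 50 mM. On salt it fell in lin-45, at -0.32 ± 0.11 (log2, SE; adjusted p = 0.0251), and rose in N2, at 0.35 ± 0.11 (adjusted p = 0.0207). It was the only member called in opposite directions in the strains.

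mrps-5, the member best known from work on worm lifespan, lies on the plus strand of chromosome V from 12563465 to 12565767 (E02A10.1). It had 104.4 and 106 CPM in lin-45 at 500 mM, 141 and 133 in lin-45 at 50 mM, 100.1 and 98.5 in preconditioned embryos, 108 and 104.2 in N2 at 500 mM and 101 and 106 in N2 at 50 mM. The lin-45 libraries on 50 mM stood above all others, which overlapped. Its log2 fold change on salt was -0.38 ± 0.07 in lin-45 (SE; adjusted p = 0.00105) and 0.041 ± 0.07 in N2 (adjusted p = 0.615). That N2 value had the other sign with upper-quartile scaling, without the filter, or with library size alone.

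**Figure D2:**
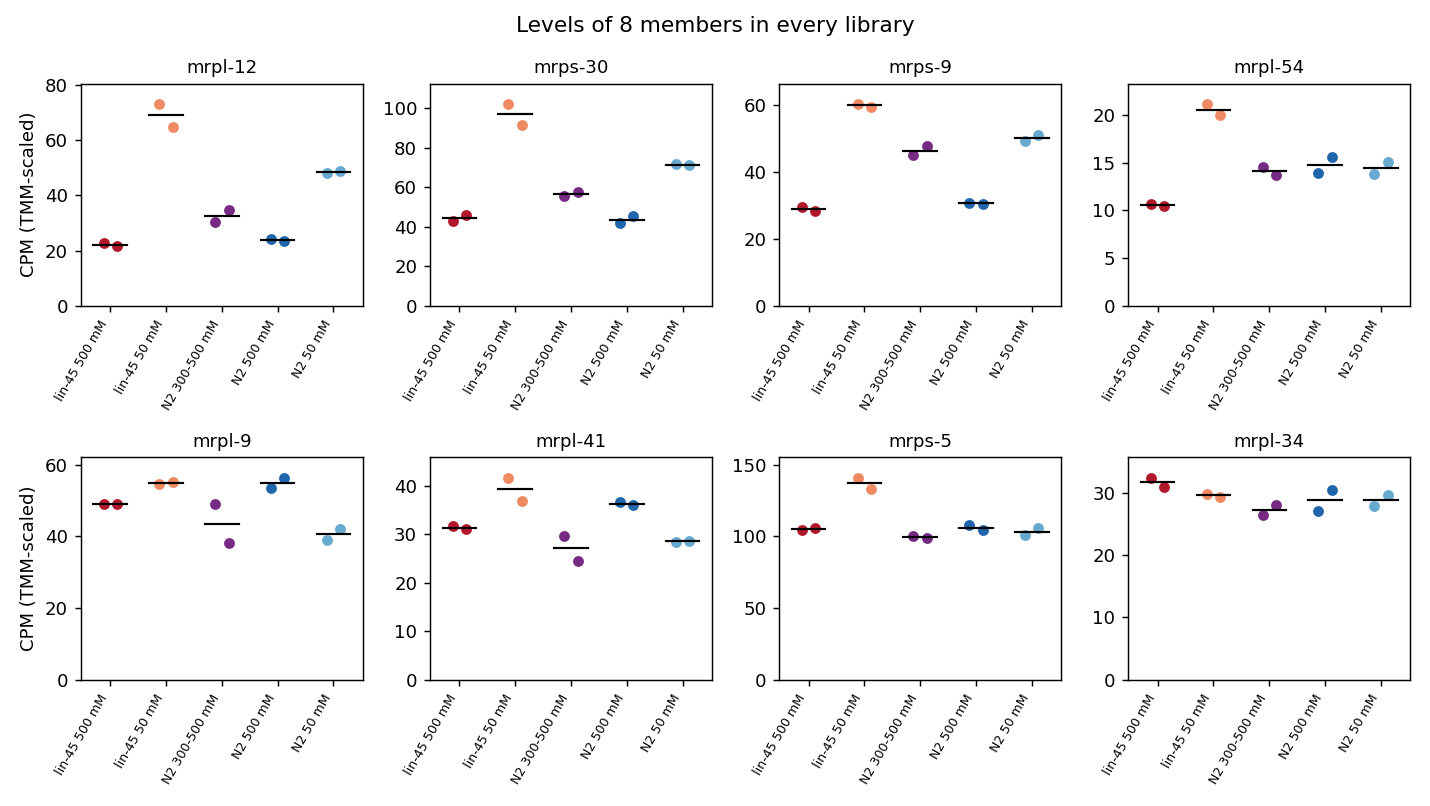
CPM of 8 members in every library, by group, with a bar at each group mean. mrpl-12, mrps-30 and mrps-9 are lowest in lin-45 and N2 embryos moved to 500 mM, mrpl-54 is lowest in lin-45 500 mM, and mrpl-34 stays within a narrow range in all groups.

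The salt effects of the strains, which share no library, ran in a like order over the members. Across the 45 members, Pearson's r between the lin-45 and N2 log2 fold changes was 0.87 and Spearman's rho was 0.87, given as a description, since members share libraries and depth and are not independent replicates. The 25 members lower in N2 were 25 of the 40 lower in lin-45, so each of them was lower in both strains. The correlation and the overlap over all tested genes are not given here, so neither is shown to be particular to these members.

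**Figure D3:**
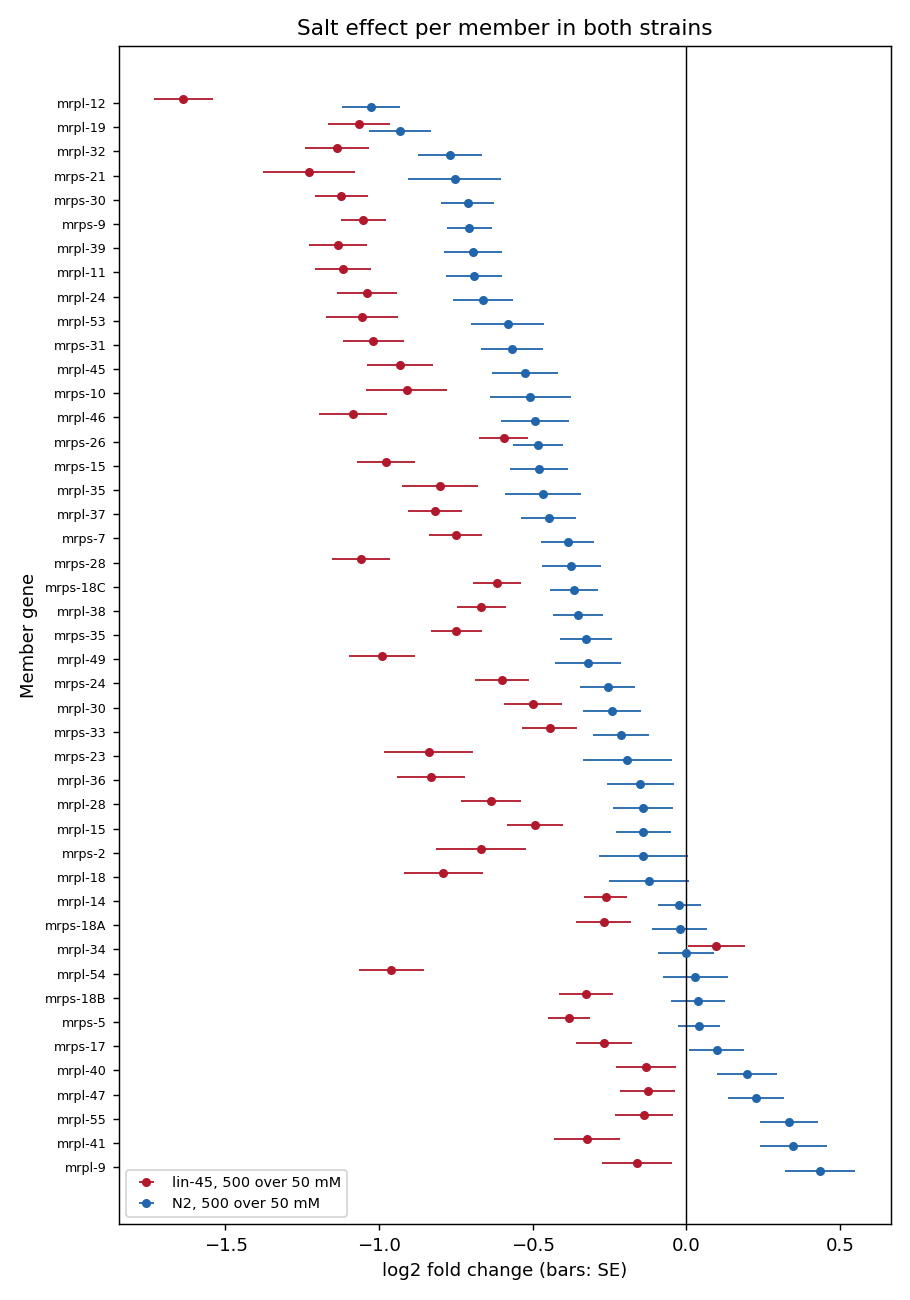
Log2 fold change of 500 over 50 mM NaCl for each member, in lin-45 (red, upper point of each pair) and in N2 (blue), with bars of 1 SE. The members are ordered by the N2 value, and all lin-45 points but that of mrpl-34 lie left of the N2 points.

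Whether salt acted differently in the strains was tested by the interaction, the log2 fold change in lin-45 minus that in N2. It was past the test and negative for 20 members (14.3% of all tested genes) and positive for 0 (12.2% of all tested genes), with a median of -0.41, against -0.061 over all tested genes. At an unadjusted p under 0.05 these were 35 and 0. DESeq2 called 9 negative and 0 positive (1481 and 1984 of all tested genes). The count moved widely with the processing. It was 11 with RLE factors, 7 with upper-quartile factors and 4 with library size alone or without the filter on low counts, and 11 with the replicate block. Without 1 library it was 1 to 19, with 1 left without N2 at 50 mM replicate 1 or without lin-45 at 500 mM replicate 2. It was 2 without N2 at 500 mM replicate 2, 4 without replicate 1 of either lin-45 group, 7 without N2 at 50 mM replicate 2 and 9 without either preconditioned library. The median stayed between -0.47 and -0.26 over these 16 alternatives, with -0.26 without preconditioned replicate 2. Its distance from the all-gene median was -0.34 with every scaling tried, since a scaling factor moves all genes of a library alike (the all-gene median was 0.069 with library size alone).

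mrpl-54, another large-subunit protein found only in mitochondria, had the lowest interaction and was the only member that passed in all 16 alternatives. It lies on the minus strand of chromosome I from 9159007 to 9159750 (F25H5.6). It had 10.6 and 10.5 CPM in lin-45 at 500 mM, 21.2 and 19.99 in lin-45 at 50 mM, 14.6 and 13.7 in preconditioned embryos, 13.9 and 15.6 in N2 at 500 mM and 13.8 and 15.1 in N2 at 50 mM. The lin-45 groups bracketed all 6 N2 libraries, which overlapped across their groups. The log2 fold change on salt was -0.96 ± 0.11 in lin-45 and 0.029 ± 0.11 in N2, and the interaction was -0.99 ± 0.15 (SE; edgeR adjusted p = 0.00649). The next lowest interactions were those of mrps-28 at -0.68 ± 0.14, mrpl-36 at -0.68 ± 0.16, mrpl-41 at -0.67 ± 0.15, mrpl-18 at -0.67 ± 0.18 and mrpl-49 at -0.67 ± 0.15. Of these, mrpl-18 and mrpl-36 have bacterial counterparts, the first of which binds the 5S rRNA, and mrpl-49 is found only in mitochondria. The interactions of mrpl-12 and mrps-5 were -0.61 ± 0.13 (adjusted p = 0.0149) and -0.42 ± 0.10 (adjusted p = 0.0170).

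The strains were also compared at each salt level, with libraries that the interaction shares. On 50 mM, 30 members were higher in lin-45 than in N2 (33.2% of all tested genes were) and 0 were lower (21.1% of all tested genes). At an unadjusted p under 0.05 these were 36 and 0. For 44 members, both lin-45 libraries lay above both N2 libraries (50.8% of all tested genes). The scaling placed all tested genes at a median of 0.16 on the log2 scale here, and the members' median of 0.30 stood 0.14 above that, with 43 members above it. With library size alone the all-gene median was 0.030, the members' median 0.17 and the distance again 0.14, while the number of higher members was 9. All 45 values were positive with TMM scaling, and 43 to 44 with the other scalings. The count was 22 with RLE factors, 15 with upper-quartile factors, 17 with DESeq2, and 6 without the filter on low counts. Without lin-45 at 500 mM replicate 2 it was 6 (all-gene median 0.024), without N2 at 50 mM replicate 1 it was 11, without lin-45 at 50 mM replicate 1 it was 12, without either preconditioned library it was 15, and without N2 at 50 mM replicate 2 it was 17. The members' median was 0.16 without lin-45 at 500 mM replicate 2 or either preconditioned library. Its distance from all genes was 0.21 without lin-45 at 50 mM replicate 2 and 0.17 without N2 at 50 mM replicate 2. That distance was 0.12 without N2 at 50 mM replicate 1, with 39 members above the all-gene median. It was also 0.12 without lin-45 at 50 mM replicate 1, with 37 above.

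The highest strain differences on 50 mM were those of mrpl-46 at 0.62 ± 0.11, mrps-28 at 0.55 ± 0.09, mrpl-12 at 0.51 ± 0.09, mrpl-54 at 0.51 ± 0.10, mrpl-18 at 0.49 ± 0.13 and mrpl-41 at 0.46 ± 0.11 (log2, SE). mrpl-46, a mitochondria-specific protein of the large subunit, had 20.6 and 20.3 CPM in lin-45 at 50 mM, against 12.9 and 13.8 CPM in N2 at 50 mM (edgeR adjusted p = 0.00171), with no overlap. mrps-28 had 27.2 and 24.9 CPM in lin-45 at 50 mM, against 18.02 and 17.5 CPM in N2 at 50 mM (edgeR adjusted p = 0.00148). The 6 members that passed in all 16 alternatives were mrpl-12, mrpl-46, mrpl-54, mrps-5, mrps-28 and mrps-30.

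On 500 mM, few members passed the test between the strains. Of the 45, 1 was lower in lin-45 than in N2 (1.65% of all tested genes) and 0 were higher (4.84% of all tested genes). Both lin-45 libraries lay below both N2 libraries for 19 members (30.1% of all tested genes) and above both for 4 (32.5% of all tested genes). At an unadjusted p under 0.05, 5 were lower and 0 higher. The median was -0.084, against 0.002 over all tested genes. It was -0.029 without N2 at 500 mM replicate 2, with 29 members negative, and -0.14 without N2 at 500 mM replicate 1, with 36 negative. The 1 member was mrpl-54, at -0.48 ± 0.11 (log2, SE; adjusted p = 0.0331). It was not called with DESeq2, with the replicate block or without single libraries of N2 at 50 mM, N2 at 500 mM or lin-45 at 500 mM (count 0 each), and without either preconditioned library the count was 2.

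Parents' salt was compared among embryos that were all on 500 mM. In preconditioned embryos, 12 members were higher than in N2 at 500 mM (10.2% of all tested genes were) and 2 were lower (12% of all tested genes). Both preconditioned libraries lay above both of N2 at 500 mM for 19 members (32.2% of all tested genes) and below both for 7 (26.3% of all tested genes). The median over the 45 was 0.089, against 0.052 over all tested genes. That median was 0.014 without N2 at 500 mM replicate 1, 0.021 without preconditioned replicate 1 and 0.066 to 0.13 without any other single library. Its distance from the all-gene median was 0.037 with all libraries and -0.035 without N2 at 500 mM replicate 1. DESeq2 called 9 higher and 2 lower (1465 and 1658 of all tested genes). The number of higher members was 3 without N2 at 500 mM replicate 1, 6 without N2 at 500 mM replicate 2 and 7 without preconditioned replicate 1. The number of lower members was 0 without either N2 at 500 mM library or without preconditioned replicate 2, and 1 without lin-45 at 500 mM replicate 2.

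mrps-9, the counterpart of a bacterial protein that reaches the tRNA sites of the small subunit, was the highest. It lies on the plus strand of chromosome III from 8265990 to 8267765 (F09G8.3). It had 29.4 and 28.4 CPM in lin-45 at 500 mM, 60.3 and 59.5 in lin-45 at 50 mM, 45.02 and 47.6 in preconditioned embryos, 30.8 and 30.5 in N2 at 500 mM and 49.3 and 50.8 in N2 at 50 mM. The preconditioned libraries stood above N2 at 500 mM and below N2 at 50 mM, with no overlap. Its log2 fold change over N2 at 500 mM was 0.59 ± 0.07 (SE; adjusted p = 0.00118). mrpl-39 followed at 0.58 ± 0.09, mrpl-19 at 0.58 ± 0.10, mrpl-24 at 0.49 ± 0.10, mrpl-12 at 0.45 ± 0.09 and mrps-26 at 0.38 ± 0.08. The bacterial counterpart of mrpl-24 acts early in assembly of the large subunit. mrpl-39 had 23.8 and 25.1 CPM in preconditioned embryos, 16.2 and 16.4 in N2 at 500 mM and 25.2 and 27.5 in N2 at 50 mM. Of the 14 calls, those of mrpl-19, mrpl-39 and mrps-9 held in all 16 alternatives.

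The 2 lower members were mrpl-41 at -0.42 ± 0.11 (log2, SE; adjusted p = 0.0245) and mrpl-55 at -0.37 ± 0.09 (adjusted p = 0.0235). mrpl-55 had 22.1 and 21.6 CPM in preconditioned embryos, 27.2 and 29.4 in N2 at 500 mM and 21.4 and 23.4 in N2 at 50 mM, so that the preconditioned libraries lay below both libraries of N2 at 500 mM and overlapped the range of N2 at 50 mM. Both genes were among the 3 higher in N2 at 500 mM than in N2 at 50 mM, a comparison that shares the N2 at 500 mM libraries.

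Against N2 at 50 mM, with salt and parental salt both changed, 14 members were lower in preconditioned embryos (27.9% of all tested genes) and 0 were higher (30.4% of all tested genes), with a median of -0.18, against 0.037 over all tested genes. Both preconditioned libraries lay below both of N2 at 50 mM for 32 members (38.3% of all tested genes). The distance of the median from all genes was -0.22 with all libraries and -0.14 without preconditioned replicate 2. At an unadjusted p under 0.05, 18 were lower and 0 higher. DESeq2 called 11 lower and 0 higher (3781 and 4168 of all tested genes). The lowest were mrps-21 at -0.58 ± 0.15, mrpl-12 at -0.58 ± 0.09, mrpl-11 at -0.51 ± 0.09, mrpl-35 at -0.49 ± 0.12, mrps-10 at -0.42 ± 0.13 and mrpl-37 at -0.42 ± 0.09 (log2, SE). The count was 9 without N2 at 50 mM replicate 1 and 6 without N2 at 50 mM replicate 2. The calls of mrpl-11, mrpl-12, mrpl-32, mrpl-37 and mrps-30 held in all 16 alternatives.

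**Figure D4:**
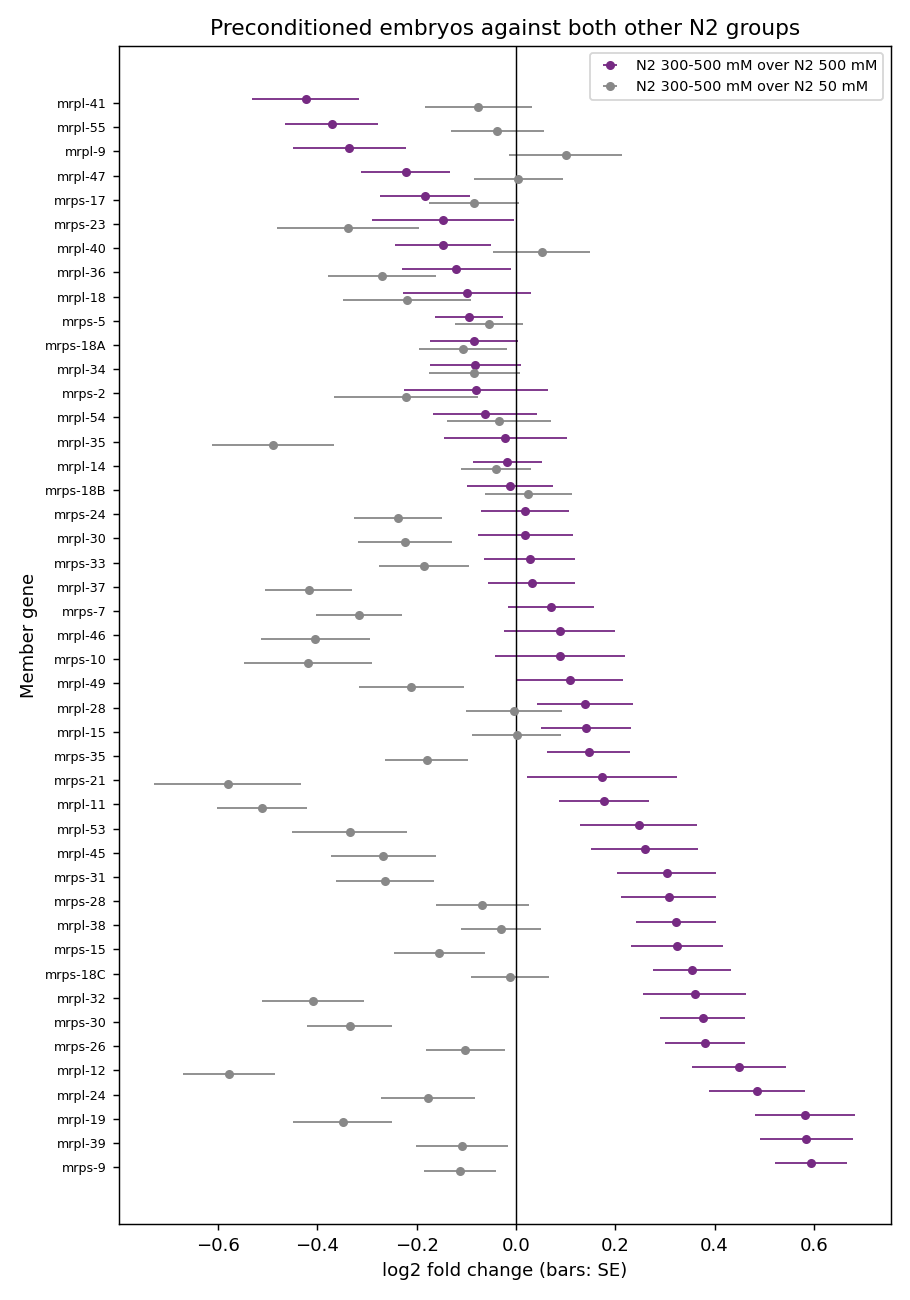
Log2 fold change of preconditioned (N2 300-500 mM) embryos over N2 500 mM and over N2 50 mM for each member, with bars of 1 SE. mrps-9, mrpl-39 and mrpl-19 lead over N2 500 mM, and mrpl-41, mrpl-9 and mrpl-55 lie lowest there. The comparisons share the preconditioned libraries.

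Replicates of a group lay close for these genes. The median absolute log2 gap between the libraries of a group was 0.072 to 0.101 over the members, against 0.0986 to 0.256 over all tested genes. That comparison was not matched for level, and the median was 39.3 FPKM for the members, against 15.9 over all tested genes. The largest gap was that of mrps-23, a small-subunit protein, with 13.3 and 17.8 CPM in N2 at 500 mM, a log2 gap of 0.42. In 3 of the 5 groups most members were higher in the same library. Replicate 1 was the higher library for 39 of 45 members in lin-45 at 50 mM, and replicate 2 was the higher for 38 of 45 in both N2 at 500 mM and N2 at 50 mM. In the other 2 groups the split was near even, with replicate 1 higher for 27 of 45 in lin-45 at 500 mM and for 26 of 45 in preconditioned embryos.

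The symbols of the table do not cover the whole mitochondrial ribosome. RefSeq, whose names were matched by sequence name, lists 71 mrpl or mrps genes. It gives the same symbol for 44 of the 45 members, and 26 further ones were in the table under a sequence name and were tested. In lin-45, 21 of these 26 were lower on salt (34.9% of all tested genes) and 1 was higher (33.4% of all tested genes). In N2, 13 were lower (32.1% of all tested genes) and 4 were higher (31.4% of all tested genes). C14A4.14 (mrps-22 in RefSeq) was at -1.32 ± 0.08 in lin-45 and -0.74 ± 0.08 in N2 (log2 fold change on salt, SE), T04A8.11 (mrpl-16) at -1.23 ± 0.11 and -0.80 ± 0.11, and T23B12.2 (mrpl-4) at -0.99 ± 0.09 and -0.77 ± 0.09. Each of these 3 was past the test in both strains. W04D2.5 (mrps-11) went the other way. It had 129 and 115 CPM in lin-45 at 500 mM, 58.95 and 59.98 in lin-45 at 50 mM, 92.8 and 87.6 in preconditioned embryos, 139.7 and 133 in N2 at 500 mM and 57.5 and 58.3 in N2 at 50 mM. It rose by 1.03 ± 0.08 in lin-45 and 1.24 ± 0.08 in N2, but it overlaps inx-11, an innexin gene on the opposite strand, and without strand the reads of such a pair cannot be told apart.

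Other genes of mitochondrial translation were mostly lower on salt as well. Of all tested genes, 34.9% were lower and 33.4% higher on salt in lin-45, and 32.1% were lower and 31.4% higher in N2. Of 5 translation factors, 4 were lower on salt in lin-45 and 4 in N2. In preconditioned embryos, 4 of these factors were higher than in N2 at 500 mM (10.2% of all tested genes). tsfm-1, the exchange factor of EF-Tu, had 14.3 and 17.1 CPM in lin-45 at 500 mM, 79.04 and 69.4 in lin-45 at 50 mM, 24.3 and 23.9 in preconditioned embryos, 15.2 and 15.2 in N2 at 500 mM and 48.8 and 49.9 in N2 at 50 mM. On salt it fell in both strains, with log2 fold changes of -2.24 ± 0.11 in lin-45 and -1.70 ± 0.11 in N2, and the preconditioned embryos stood 0.67 ± 0.11 above N2 at 500 mM (SE; adjusted p = 0.00364). tufm-1, an EF-Tu, fell on salt, with -1.19 ± 0.09 in lin-45 and -0.84 ± 0.09 in N2, and so did dap-3, in human cells itself a small-subunit protein, with -1.18 ± 0.09 in lin-45 and -0.87 ± 0.09 in N2. Without either N2 at 500 mM library, 2 translation factors in place of 4 were higher in preconditioned embryos. Of 12 mitochondrial aminoacyl-tRNA synthetases, 11 were lower on salt in lin-45 and 9 in N2, and 0 were higher in either strain. dars-2, for aspartate, was at -1.34 ± 0.15 in lin-45 and -0.91 ± 0.15 in N2, and at 0.70 ± 0.15 in preconditioned embryos over N2 at 500 mM (adjusted p = 0.0129).

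The 11 tested genes of mitochondrial DNA, whose RNAs these ribosomes translate, were mostly not past the test on salt. In lin-45, 3 of them were higher and 0 lower, with a median of 0.32. In N2, 0 were higher and 1 lower, with a median of -0.09. Of all tested genes, 33.4% were higher and 34.9% lower in lin-45, and 31.4% were higher and 32.1% lower in N2. Summed over the 11, the lin-45 groups overlapped, with 18053 and 19732 CPM at 500 mM, against 18796 and 14547 at 50 mM. nduo-1, a complex I subunit, had 2067 and 2234 CPM in lin-45 at 500 mM, 1441 and 1346 in lin-45 at 50 mM, 2225 and 2160.3 in preconditioned embryos, 2674 and 2514 in N2 at 500 mM and 2423 and 2519 in N2 at 50 mM. Its interaction was 0.56 ± 0.11 (log2, SE; adjusted p = 0.0110). The libraries were made from polyadenylated RNA, in which mitochondrial transcripts are captured through their short tails. Of 33 nuclear genes for respiratory chain subunits, 27 were lower and 1 higher on salt in lin-45, and 19 were lower and 2 higher in N2. Of 5 genes for maintenance and transcription of mitochondrial DNA, 3 were lower and 1 higher in lin-45, and 1 lower and 2 higher in N2. mtss-1, which binds single-stranded mitochondrial DNA, fell, with -1.10 ± 0.09 in lin-45 and -0.72 ± 0.09 in N2, while polg-1, the mitochondrial DNA polymerase, rose by 0.45 ± 0.13 in lin-45 and 0.79 ± 0.13 in N2.

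Mitochondrial ribosomal proteins reach the matrix through the import machinery and are folded there by chaperones. Of 10 genes for protein import, 9 were lower on salt in lin-45 and 9 in N2. Their median log2 fold changes were -1.10 in lin-45 and -0.59 in N2. Of all tested genes, 34.9% were lower and 33.4% higher on salt in lin-45, and 32.1% were lower and 31.4% higher in N2. tomm-40, the pore of the outer membrane, fell, with log2 fold changes of -1.53 ± 0.09 in lin-45 and -1.30 ± 0.09 in N2. Of 10 genes for stress response and proteases, 8 were lower and 1 higher in lin-45, and 5 were lower and 0 higher in N2. hsp-60, the matrix chaperonin, had 92.2 and 108 CPM in lin-45 at 500 mM, 576 and 452 in lin-45 at 50 mM, 174 and 174 in preconditioned embryos, 87.7 and 93.4 in N2 at 500 mM and 385 and 392 in N2 at 50 mM. spg-7, the m-AAA protease subunit whose yeast and mammalian relatives cut the relatives of mrpl-32, fell on salt, with -1.49 ± 0.09 in lin-45 and -1.002 ± 0.09 in N2, and stood 0.55 ± 0.09 higher in preconditioned embryos than in N2 at 500 mM.

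The cytosolic ribosome gives the nearest comparison by function. Of 78 cytosolic ribosomal protein genes, 75 were lower on salt in lin-45 (34.9% of all tested genes) and 1 was higher (33.4% of all tested genes). In N2, 49 were lower (32.1% of all tested genes) and 2 were higher (31.4% of all tested genes). The cytosolic medians of -0.73 in lin-45 and -0.27 in N2 were near the -0.79 and -0.33 of the mitochondrial members. The sets differed in spread. In lin-45 the distance between the quartiles was 0.59 for the mitochondrial members, against 0.11 for the cytosolic genes, and in N2 it was 0.50, against 0.11. No test of that spread was made, and the mitochondrial genes have far fewer counts. In preconditioned embryos, 0 cytosolic genes were higher than in N2 at 500 mM and 2 were lower, with a median of -0.15. On 50 mM, all 78 were higher in lin-45 than in N2, with a median of 0.55.

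**Figure D5:**
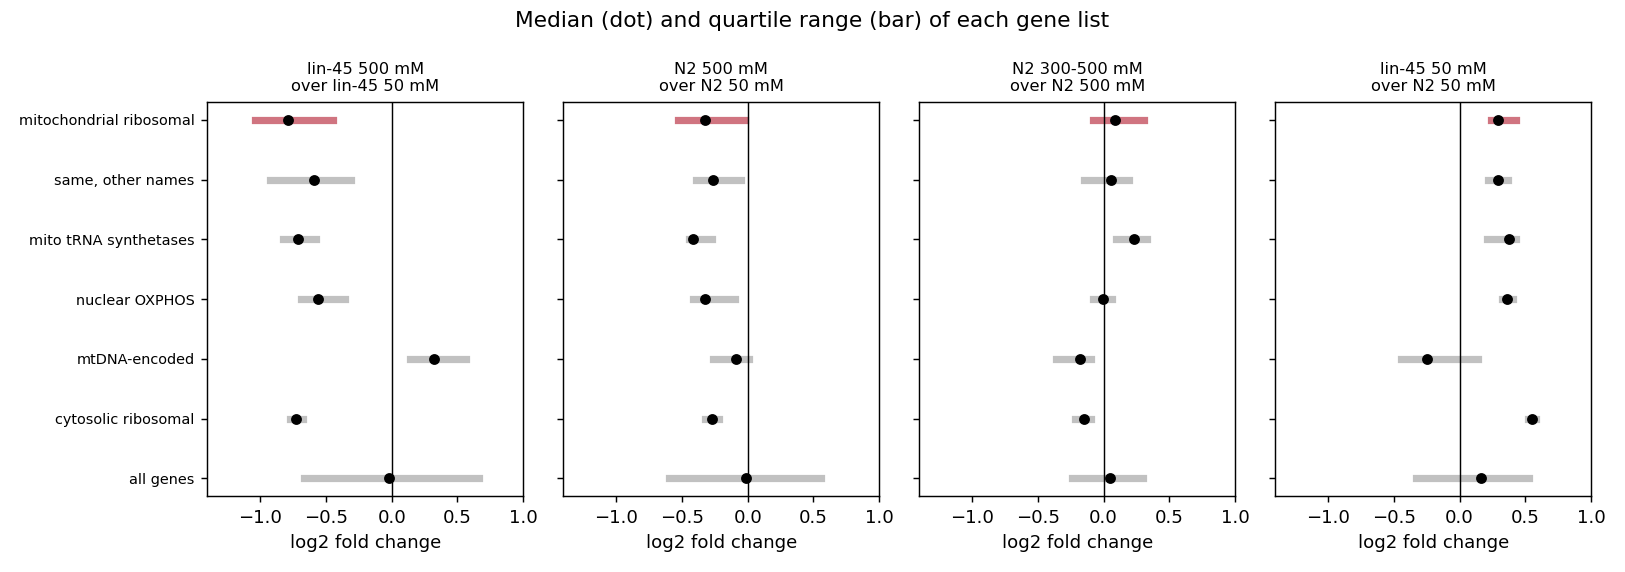
Median (point) and quartiles (bar) of the log2 fold changes of each gene list in 4 comparisons. The mitochondrial members lie left of all tested genes on salt in both strains, with a wider bar than the cytosolic ribosomal protein genes, and the genes of mitochondrial DNA lie on the other side in lin-45.

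Many worm genes sit in operons and are transcribed with a close neighbour. By the deposited ce10 coordinates, 13 of the 45 members (28.9%) had a protein-coding neighbour on the same strand that ended 0 to 500 bases upstream, against 17.1% of 14487 tested protein-coding genes. With either side counted, 23 members (51.1%) had such a neighbour, against 30.8%. The members lay on chromosome I (10), II (6), III (17), IV (6) and V (6). The pairs that follow were chosen after their values were seen. mrps-26 lies 9 bases after prmt-5, a protein arginine methyltransferase, and 42 bases before wars-2, a tryptophanyl-tRNA synthetase. On salt in lin-45 the fold changes were -0.59 for mrps-26, -0.84 for prmt-5 and -0.73 for wars-2, and in N2 they were -0.48, -0.55 and -0.15, the last not past the test. mrpl-41 lies 85 bases after misc-1, a mitochondrial carrier, and 180 bases before djr-1.1, a glyoxalase of the DJ-1 family. In lin-45 mrpl-41 was at -0.32, misc-1 at -0.67 and djr-1.1 at 0.16, and in N2 they were at 0.35, 0.10 and 0.88. mrpl-47, at -0.13 in lin-45 and 0.23 in N2 and not past the test in either, lies 215 bases before let-363, the TOR kinase, which rose by 0.60 in lin-45 and 0.50 in N2.

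In all, 12 members (26.7%) overlap another tested gene model, against 22% of tested protein-coding genes, and their values are less certain because reads may have been shared. Besides mrpl-12, mrpl-34 and mrps-21 these were mrpl-14, mrpl-24, mrpl-35, mrpl-38, mrpl-53, mrps-2, mrps-18A, mrps-18B and mrps-23. mrps-2 overlaps T23B12.2, itself a mitochondrial ribosomal gene, on the same strand. mrps-2 had log2 fold changes of -0.67 in lin-45 and -0.14 in N2, against -0.99 and -0.77 for T23B12.2.

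Markers of embryonic cell types also differed between the groups, and not all in one order. The sum of 3 intestinal markers was 1152 to 1171 CPM in lin-45 at 500 mM, 2495 to 2622 in lin-45 at 50 mM, 847 to 977 in preconditioned embryos, 868 to 950.3 in N2 at 500 mM and 1819 to 1973 in N2 at 50 mM. That sum was carried by ifb-2 and act-5, while the third gene, ges-1, was higher on salt in N2, with 30.2 and 30.9 CPM in N2 at 500 mM, against 16.4 and 18.8 CPM in N2 at 50 mM. The sum of 3 epidermal markers was 708 to 726 CPM in lin-45 at 500 mM, 74.8 to 118 in lin-45 at 50 mM, 1032 to 1081 in preconditioned embryos, 921 to 997 in N2 at 500 mM and 331 to 410.1 in N2 at 50 mM. Intestinal markers as a sum were highest, and epidermal markers lowest, in lin-45 at 50 mM, the group where 42 members were highest.

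Other marker lists kept other orders. The sum of 4 muscle markers was 9448 to 10137 CPM in lin-45 at 500 mM, 8561 to 9545 in lin-45 at 50 mM, 5086 to 6294 in preconditioned embryos, 7886 to 8259 in N2 at 500 mM and 7066 to 7399 in N2 at 50 mM. Its highest library was in lin-45 at 500 mM, where 30 members were lowest, but the ranges of the lin-45 groups overlapped. Its genes did not share one order. myo-1 had 1252 and 1179 CPM in lin-45 at 500 mM, against 1427 and 1322 in lin-45 at 50 mM. myo-3 had 1911 and 1770 CPM in lin-45 at 500 mM, against 2071 and 1788 in N2 at 500 mM. unc-54 and myo-2 overlapped between the lin-45 groups. The sum of 4 neuronal markers was 706 to 712 CPM in lin-45 at 500 mM, 835 to 848 in lin-45 at 50 mM, 642 to 784 in preconditioned embryos, 653 to 689.8 in N2 at 500 mM and 926 to 929 in N2 at 50 mM, so N2 at 50 mM was highest. Zygotic lineage factors summed to 446 to 468 CPM in lin-45 at 500 mM, 298 to 305 in lin-45 at 50 mM, 618 to 619 in preconditioned embryos, 479 to 503 in N2 at 500 mM and 358 to 363 in N2 at 50 mM. The sum of 9 maternal and early markers was 213 CPM in preconditioned replicate 1, against 105 in preconditioned replicate 2, and 74.5 to 143 in the other 8 libraries. Adult germline markers summed to 14.7 to 54.6 CPM in the 10 libraries. The part of cell type makeup or embryo stage in the members' differences was not tested.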

How the data were processed

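Polyadenylated RNA of embryos was sequenced as read pairs, per the labels. According to the submitters' processing notes, the genome build was ce10, and the software included RSEM 1.2.15 and BWA 0.6.1, besides DESeq 1.10.1 and bedtools 2.25.0. What each tool did, which annotation was used and whether counting was stranded is not given in the sources used here. Per gene and library, the authors deposited an expected count, not normalized, an FPKM value, a log2 value that equals log2(FPKM + 1), and the mean and variance of the log2 values. Expected counts need not be whole and were rounded.

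Counts of all 14802 genes with at least 1 CPM in 2 libraries were fitted with edgeR 4.0.16 in R 4.3.3, with TMM scaling and a mean for each of 5 groups over 10 libraries. The fit has 5 residual degrees of freedom. For 7 contrasts, quasi-likelihood F tests (two-sided) gave p-values that were adjusted over all tested genes by Benjamini-Hochberg, with 0.05 as threshold. Counts at an unadjusted p are given for the members alone, without the share of all tested genes. CPM values are TMM-scaled, and errors are SE of the fit or SD of 2 libraries. FPKM served only to compare levels between genes. Alternatives were RLE, upper-quartile and no scaling factors, no filter, DESeq2 1.42.0, a replicate block, and leaving out each library. The test was checked on simulated data.

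Members and lists were chosen with earlier results of these data known. Named members are the 6 highest and 6 lowest called in each comparison, all of a direction with 5 or fewer, the 10 with the smallest p in the interaction, the 3 highest and lowest by FPKM, the largest replicate gap, mrps-5 and mrpl-12. Up to 4 genes of each other list with the smallest p qualify. Of the listed names, 20 did not match the table. RefSeq names come from another build (WBcel235), from which no coordinates were used. Names of gene neighbours are those of the deposited table. The 8 names that were missing or doubled were replaced by sequence names.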

Additional observations from a re-analysis of the deposited data

Results flagged for a closer look

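These 20 members were singled out because salt changed them differently in lin-45 than in N2 by the test of the difference itself (edgeR interaction, adjusted p under 0.05). Each value is the log2 fold change of 500 over 50 mM in lin-45 minus that in N2, and all are negative. mrpl-54 was at -0.99. mrps-28, mrpl-36, mrpl-41 and mrpl-18 were at -0.68, -0.68, -0.67 and -0.67. mrpl-49, mrps-23, mrpl-12 and mrpl-9 were at -0.67, -0.65, -0.61 and -0.60. mrpl-46, mrps-15, mrpl-28 and mrpl-55 were at -0.59, -0.50, -0.49 and -0.47. mrps-31, mrpl-39, mrpl-11 and mrps-35 were at -0.45, -0.44, -0.43 and -0.42. mrps-5, mrps-30 and mrps-9 were at -0.42, -0.41 and -0.34. Of the 20, the call of mrpl-54 alone held in all 16 alternatives. On 50 mM, 16 of the 20 were also called higher in lin-45 than in N2, and on 500 mM, 1 was called between the strains. Those comparisons share libraries with the interaction. The groups hold 2 libraries each, so no library could be set apart as an outlier within its group.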

How the results depend on the processing

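Every value here counts members past an adjusted p of 0.05 unless named otherwise. Lower members on salt numbered 25 in N2 (23 to 28 under RLE, upper-quartile or library-size scaling, no filter, DESeq2 and the replicate block) and 40 in lin-45 (36 to 40 under the same). Leaving out single libraries gave 21 to 27 lower and 0 to 3 higher in N2, and 32 to 40 lower and 0 to 1 higher in lin-45. No filter on low counts gave 0 in place of 3 higher in N2, and it gave 0 in place of 2 lower in preconditioned embryos against N2 500 mM, as did library size alone. For lin-45 against N2 on 50 mM, 30 higher became 15 with upper-quartile factors, 6 without the filter, 17 with DESeq2 and 9 with library size alone, and 6 to 28 without single libraries. For lin-45 against N2 on 500 mM, 1 lower became 0 with DESeq2 and 0 with the replicate block, and 0 to 2 without single libraries. Preconditioned embryos had 3 to 11 higher and 0 to 3 lower members against N2 500 mM, and 6 to 19 lower and 0 to 1 higher against N2 50 mM, without single libraries. The interaction's 20 lower became 11 with RLE factors, 7 with upper-quartile factors, 4 without the filter, 9 with DESeq2, 11 with the replicate block and 4 with library size alone, and 1 to 19 without single libraries. For counts that moved, the cause was not tested.

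For mrps-5 on salt in N2, 0.041 (log2) became -0.019 with upper-quartile factors, -0.091 without the filter and -0.012 with library size alone. Its value in lin-45 against N2 on 500 mM ran from -0.040 to 0.011 without single libraries, the opposite sign being that without N2 500 mM replicate 1. None of these passed the test. Calls that held in all 16 alternatives were 20 of 28 in N2 and 32 of 40 in lin-45 on salt.

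The labels do not say whether equal replicate numbers pair libraries. Deviations of replicate 1 from the group means correlated at -0.23 to 0.15 between groups, which does not settle whether they do. With the replicate block, the interaction's 20 became 11 and the 1 lower on 500 mM became 0. It moved no other count of members by over 1.5 times. Library size alone was chosen after seeing the data. With 2 libraries a group, an exact permutation test cannot go below p = 0.333, and calls rest on the spread pooled over genes and groups. When 1 library is left out, the lone one is assumed to vary like the other groups. Simulated counts for N2 500 against 50 mM covered 14305 genes. There, 14.3% of changes of 0.5, 74.2% of changes of 1 and 100% of changes of 2 (log2) were recovered. In that simulation few genes were changed, and all had the same spread. In the data 31.4% of all tested genes were called higher and 32.1% lower, which makes the adjusted threshold easier to reach. The share of changes missed among the members is therefore not known from these rates.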
